A study of Mus musculus with 44 samples.

Results

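Mutant-only Snai1 sites near gene ends were defined as peaks of the mutant Snai1 ChIP-seq list that overlapped no peak of the wild-type Snai1 list or of the empty-vector list by 1 base, with a summit within 5 kb of either annotated end of a RefSeq gene on GRCm38. They were thus chosen by the authors' peak calls in the 3 lists and by position. There were 6160 such sites among 12037 mutant peaks (51.2%). The wild-type list held 2929 peaks and the empty-vector list 137. Sites of the mutant list that overlapped a wild-type peak and lay equally near a gene end served for comparison (1540, called shared sites below). Mutant-only peaks with a summit more than 5 kb from any gene end, which may lie inside genes, served too (3348, called distal).

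The study measured Snai1 binding and histone H3 lysine 4 methylation in HPC7, a stem cell factor-dependent mouse line of haematopoietic progenitors. All cells carried an MSCV-IRES-GFP retrovirus: with a mutant Snai1 cDNA in which alanine replaces the phenylalanine at position 5, a change that impairs contact with the demethylase Lsd1 (gene Kdm1a); with wild-type Snai1 cDNA; or with no cDNA, the empty vector. GFP-positive cells were sorted a week after transduction and expanded, and no group is labelled as lacking the endogenous Snai1 gene. Per construct, 4 technical replicates of Snai1 ChIP and 4 of input DNA are represented by 1 peak list, so no peak has a replicate check, whereas H3K4me2 and H3K4me1 had 3 libraries per construct and IgG had 2 from wild-type Snai1 cells.

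Snai1 is a zinc finger repressor of the Snail family that binds the E-box CACCTG and is best known for silencing epithelial genes in epithelial-mesenchymal transition. Its amino-terminal SNAG domain, which it shares with the blood cell repressors Gfi1 and Gfi1b, mimics the tail of histone H3 and recruits Lsd1, which removes mono- and dimethyl groups from lysine 4 of histone H3. H3K4me2 marks active and poised promoters and enhancers, and H3K4me1 is most typical of enhancers.

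The promoters of the 4 strongest mutant-only sites with a summit inside a 300-base RefSeq promoter are shown first, because each holds the Snail-type E-box. They run from 250 bases before to 50 bases after the annotated start site (GRCm38.p6), 5′ to 3′ along the gene. Capitals mark the E-box (CACCTG, or CAGGTG on the other strand) and the core recognised by ETS factors (CCGGAAG, or CTTCCGG on the other strand). The Gtpbp2 promoter (chr17:46160782-46161081, plus strand) belongs to a GTP-binding protein that acts with the ribosome, Fars2 (chr13:36117393-36117692, plus strand) encodes the mitochondrial phenylalanyl-tRNA synthetase, Nsmce1 (chr7:125491394-125491693, minus strand) encodes a subunit of the Smc5-Smc6 complex, and Nit1 (chr1:171345596-171345895, minus strand) encodes an amidase.
Gtpbp2: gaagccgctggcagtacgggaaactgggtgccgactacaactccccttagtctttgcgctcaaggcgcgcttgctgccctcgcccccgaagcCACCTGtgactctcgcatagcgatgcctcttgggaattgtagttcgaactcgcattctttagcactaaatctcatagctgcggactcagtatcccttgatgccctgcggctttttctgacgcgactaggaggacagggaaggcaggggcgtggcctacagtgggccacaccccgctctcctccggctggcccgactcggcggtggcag
Fars2: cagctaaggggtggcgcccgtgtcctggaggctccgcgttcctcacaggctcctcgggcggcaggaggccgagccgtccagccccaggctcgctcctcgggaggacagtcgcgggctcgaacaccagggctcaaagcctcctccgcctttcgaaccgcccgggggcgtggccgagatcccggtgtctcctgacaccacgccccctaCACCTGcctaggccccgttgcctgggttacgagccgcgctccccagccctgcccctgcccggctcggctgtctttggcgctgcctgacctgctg
Nsmce1: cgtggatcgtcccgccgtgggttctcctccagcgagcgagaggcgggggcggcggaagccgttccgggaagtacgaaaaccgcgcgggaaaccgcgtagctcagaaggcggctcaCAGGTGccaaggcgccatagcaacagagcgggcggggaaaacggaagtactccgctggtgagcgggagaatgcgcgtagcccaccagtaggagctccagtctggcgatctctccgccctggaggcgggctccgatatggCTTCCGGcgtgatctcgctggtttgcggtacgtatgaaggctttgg
Nit1: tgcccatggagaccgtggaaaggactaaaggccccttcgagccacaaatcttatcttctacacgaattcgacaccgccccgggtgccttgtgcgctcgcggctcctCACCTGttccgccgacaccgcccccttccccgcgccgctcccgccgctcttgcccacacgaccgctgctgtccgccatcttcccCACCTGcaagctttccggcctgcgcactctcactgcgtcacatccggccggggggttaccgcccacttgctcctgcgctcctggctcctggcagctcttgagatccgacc

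Most mutant-only promoters differed from these, so the strongest promoter with the ETS core and no E-box and the strongest with neither are shown next. Med17 (chr9:15279857-15280156, minus strand) encodes a subunit of Mediator, and 3110056K07Rik (chr12:71015774-71016073, minus strand) has no role given here. The strongest shared promoter, that of Trmt61b (chr17:71598712-71599011, minus strand), which encodes a mitochondrial tRNA methyltransferase, stands for comparison. These 3 were chosen after the values were seen.
Med17: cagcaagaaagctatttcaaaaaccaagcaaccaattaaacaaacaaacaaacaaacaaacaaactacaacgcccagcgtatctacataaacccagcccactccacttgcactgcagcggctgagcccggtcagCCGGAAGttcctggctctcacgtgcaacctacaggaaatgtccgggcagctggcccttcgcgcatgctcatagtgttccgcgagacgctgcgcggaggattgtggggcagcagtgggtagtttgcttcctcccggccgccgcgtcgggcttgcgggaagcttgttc
3110056K07Rik: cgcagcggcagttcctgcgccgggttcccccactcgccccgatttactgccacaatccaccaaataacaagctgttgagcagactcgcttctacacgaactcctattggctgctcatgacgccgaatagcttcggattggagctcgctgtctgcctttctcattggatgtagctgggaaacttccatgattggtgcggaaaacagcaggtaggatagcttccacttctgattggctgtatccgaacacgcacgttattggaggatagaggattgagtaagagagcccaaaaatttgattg
Trmt61b: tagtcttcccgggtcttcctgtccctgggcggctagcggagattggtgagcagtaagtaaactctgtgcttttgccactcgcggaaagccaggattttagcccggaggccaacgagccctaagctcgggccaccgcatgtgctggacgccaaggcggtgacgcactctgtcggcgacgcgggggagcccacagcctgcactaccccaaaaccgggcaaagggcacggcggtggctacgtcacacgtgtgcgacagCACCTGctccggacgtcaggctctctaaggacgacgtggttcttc

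The Gtpbp2 site (chr17:46160558-46161068) had the highest −log10 q of all mutant-only sites near gene ends, 102, where q is the peak caller's adjusted p, and a 22.8-fold enrichment over local background. Its summit lay 141 bases upstream of the start site. The Fars2 site (chr13:36117452-36118019) had the highest fold enrichment, 25.4, at a −log10 q of 96.5, and its summit stood 3 bases upstream of the start. At Nsmce1 the summit was 125 bases upstream (16.2-fold, −log10 q 75.2), and at Nit1 it was 7 bases upstream (16.5-fold, −log10 q 71.1). The Med17 site reached 16-fold with its summit 9 bases downstream of the start, and the site of 3110056K07Rik reached 15.5-fold with its summit 88 bases upstream. The shared site of Trmt61b had a 32.2-fold enrichment in the mutant list and overlapped a wild-type peak of 12-fold. All these fold and q values are the peak caller's own, as the authors deposited them.

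Other sites among the 12 strongest lay near Fam193a (23.0-fold), near Prorp, the nuclease subunit of mitochondrial RNase P (20.3-fold), near Zscan25, a zinc finger gene (20.4-fold), near Lmtk2, a membrane kinase (15.3-fold), and near Kcnip3, a calcium-binding repressor (18.5-fold). The remaining 3 were near LOC115487300 (20.8-fold), 2610005L07Rik (13.2-fold) and 1700029M03Rik (16.7-fold). Strength at this level was rare. The median mutant-only site near a gene end had a 5.27-fold enrichment, with quartiles of 4.44 and 6.42 and a range of 1.9 to 25.4. Shared sites had a median of 7.87-fold (quartiles 5.77 and 11.7, range 2.72 to 62.7), and distal mutant-only sites a median of 5.14-fold. Mutant-only sites were also narrower, with a median width of 275 bases against 401 bases for shared sites. These values come from the lists that chose the sites and are given as a description, with no test.

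**Figure D1:**
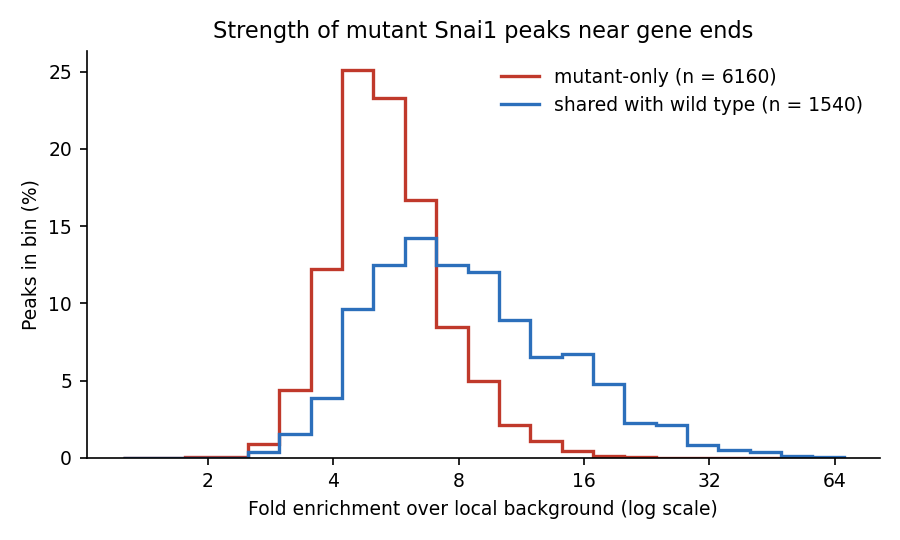
Distribution of fold enrichment over local background (log axis) for the 6160 mutant-only and the 1540 shared sites near gene ends, as percent of peaks per bin. The mutant-only sites pile up around their median of 5.27-fold, and the shared sites spread from 2.72 to 62.7-fold.

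The share of mutant-only sites depended on rank. Among the 500 strongest peaks of the mutant list near a gene end, 101 were mutant-only (20.2%). The share was 53.2% for ranks 501 to 1000, 69.6% for ranks 1001 to 2000, 84.0% for ranks 2001 to 4000 and 92.4% for ranks 4001 to 7700. The weaker a mutant peak was, the more often the wild-type list held no peak there. The lists give no wild-type signal at positions without a called wild-type peak, so a mutant-only site is one that was not called in wild type, and its wild-type binding is unknown.

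Most sites stood far from any wild-type peak. The median distance to the nearest one was 88477 bases, 5256 sites (85.3%) had none within 10 kb, and 326 (5.29%) had one within 1 kb. The 2 sites nearest to a wild-type peak without touching it were at Rsbn1, 4 bases away (10.2-fold), and at Idi1, a gene of isoprenoid synthesis, 17 bases away (4.59-fold). On the other side of that limit, the mutant peak at Fam120c (4.96-fold) overlapped a wild-type peak by 3 bases and the one at Gm52797 (3.79-fold) by 6 bases. At the limit of distance, the sites just inside were at Ubxn11, with the summit 4993 bases from a gene end (15.2-fold), and at Cenpu, a centromere protein gene, at 4998 bases (4.27-fold). Just outside were mutant-only peaks near Extl1, at 5002 bases (6.52-fold), and near Mtg2, at 5012 bases (5.52-fold).

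Summits gathered at start sites. Of 4684 sites whose nearest gene has a strand in the promoter table, 3850 (82.2%) were nearer to the start than to the end of that gene. Of the 6020 sites on chromosomes with promoter entries, 24.8% had a summit within 100 bases of a RefSeq start and 37.2% within 250 bases (95% exact binomial interval 36.0 to 38.5%). Among 1516 shared sites the shares were 11.2% within 100 bases and 23.6% within 250 bases (21.5 to 25.8%). The listed starts covered 27025 genes, against 49997 RefSeq genes with coordinates, so a summit at an unlisted start counted as farther away. The Lrrc24 site, 45 bases from a gene end, was thus placed at -272302 bases from the nearest listed start. These shares may therefore be too low in both parts. Within 1000 bases the parts were closer, at 54.8% for mutant-only and 49.8% for shared sites. Of the summits within 1000 bases, 57.6% of mutant-only and 47.9% of shared ones were upstream of the start, with a median position of -27 bases for mutant-only and 15 bases for shared sites. The intervals here and below cover counting error only. A start site is one of the gene ends in the rule, so nearness to starts was partly fixed by the choice of sites, as was the contrast with distal sites; the mutant-only and shared sites met the same limit of distance.

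**Figure D2:**
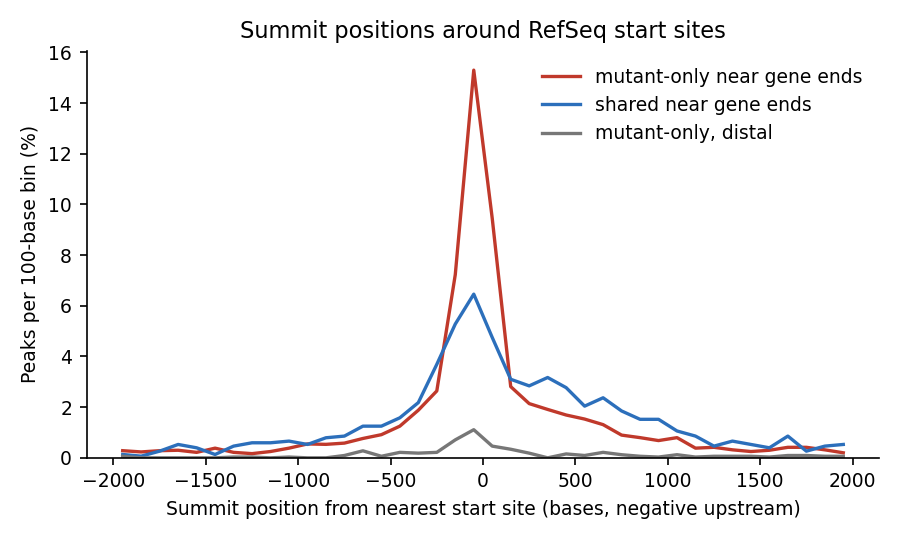
Percent of summits per 100-base bin against their position from the nearest listed RefSeq start site (bases, negative upstream) for mutant-only sites near gene ends, shared sites and distal mutant-only sites. The mutant-only line forms a narrow peak at the start site, and the shared line is lower and extends farther downstream.

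The sites were linked to 7942 RefSeq genes, a gene being linked when an end lay within 5 kb of the summit; 15.9% of all genes with coordinates were linked. Of these genes 6174 had 1 site and 1768 had 2 or more. The genes with the most sites were Gpr146, a receptor gene, with 7, and Trmt1, a tRNA methyltransferase gene, and Lyl1, a haematopoietic transcription factor gene, with 6 each. Counts of different genes can share sites, since 2222 sites were linked to 2 genes and 752 to 3 or more. A protein-coding gene was linked to 5162 of the sites (83.8%), and 25.7% of protein-coding genes were linked, against 11.5% of lncRNA genes and 3.05% of pseudogenes. Of 430 tRNA genes 122 were linked (28.4%), through 82 sites, 42 of which had a summit within 200 bases of a tRNA gene end. None of 65 rRNA genes was linked. Shared sites were linked to 2233 genes (4.47% of all genes and 6.94% of protein-coding ones), and 890 genes were linked to both kinds, which is 11.2% of the genes of mutant-only sites and 39.9% of the genes of shared sites.

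Genes of protein synthesis and turnover were often linked. In this and the following lists, genes are ordered by the −log10 q of their site, and the fold is printed. Of 38 aminoacyl-tRNA synthetase genes, 27 were linked to a mutant-only site (71.1%), among them Fars2, Eprs (7.71-fold) and Farsa (8.2-fold). Of 89 cytoplasmic ribosomal protein genes, 60 were linked (67.4%), with the highest −log10 q at Rps18 (10.7-fold), Rpl8 (12-fold) and Rpl27 (7.71-fold). Mitochondrial ribosomal protein genes were linked in 50 of 78 cases (64.1%), with a 14.6-fold site at Mrpl9 and a 13.1-fold site at Mrpl38. Proteasome subunit genes were linked in 26 of 39 cases (66.7%), led by Psmb4 (10.5-fold), and splicing factor genes in 22 of 34 (64.7%), led by Srsf7 (7.07-fold) and Snrnp70 (9.33-fold). These shares stand beside 25.7% of all protein-coding genes, and shared sites reached 12.4% of the cytoplasmic ribosomal protein genes and 15.8% of the synthetase genes. A site close to several genes counts for each: the site at Tbp, the TATA-binding protein gene, and that of Psmb1 were the same peak (8.88-fold).

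Genes of nuclear processes stand beside the same background of 25.7% of protein-coding genes and 15.9% of all genes. DNA repair genes were linked in 17 of 30 cases (56.7%), with a 12.1-fold site at the mismatch repair gene Msh6 and a 10.5-fold site at Lig4, the ligase of end joining. Mediator subunit genes were linked in 15 of 30 cases, with Med8 (11.5-fold) and Med23 (11.1-fold) after Med17. Genes of p53 and apoptosis were linked in 14 of 28 cases, with sites at the p53 target Bbc3 (11.7-fold) and at Trp53 itself (8.03-fold). Cell cycle and replication genes were linked in 18 of 37 cases, with Mcm7 of the replicative helicase at 9.28-fold. Numbered zinc finger genes were linked in 130 of 399 cases (32.6%), led by Zfp341 (12.5-fold). Housekeeping genes were linked in 15 of 26 cases (57.7%), initiation factor genes in 26 of 58 (44.8%), nuclear pore genes in 7 of 19 (36.8%), interferon response genes in 7 of 28 (25%) and microRNA genes in 130 of 1182 (11%). The interferon share was near the share of all protein-coding genes, and the microRNA share was below that of all genes. Housekeeping windows had median H3K4me2 levels of 82.6 to 94.5 CPM in mutant, 91.6 to 96.0 CPM in wild-type and 94.5 to 95.2 CPM in empty-vector libraries.

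Blood cell genes are given beside the same 25.7% of all protein-coding genes. Of 25 stem and progenitor genes, 12 were linked (48.0%), with sites at Spi1 (9.41-fold), which encodes the ETS factor PU.1, at Ikzf1 (9.04-fold), which encodes Ikaros, and at Lyl1 (7.32-fold). Erythroid and megakaryocytic genes were linked in 9 of 23 cases (39.1%), with sites at the platelet receptor subunit gene Gp9 (13.4-fold), at Nfe2 (12.8-fold), a transcription factor gene of both lineages, and at Urod of haem synthesis (12.5-fold). Myeloid genes were linked in 8 of 28 cases (28.6%), with Cebpe at 7.03-fold and the receptor gene Csf1r at 6.42-fold. Lymphoid genes were linked in 6 of 22 cases (27.3%), with Cd79a at 7.87-fold, and mast cell and basophil genes in 5 of 20 (25%), with Kit, the stem cell factor receptor, at 6.71-fold. The myeloid, lymphoid and mast cell shares were near the background. The progenitor list also had the highest H3K4me2 of these blood lists, with medians over its windows of 123 to 139 CPM in mutant, 126 to 145 CPM in wild-type and 127 to 131 CPM in empty-vector libraries. Lymphoid windows had medians of 4.98 to 7.42 CPM in mutant, 6.02 to 7.39 CPM in wild-type and 6.82 to 10.1 CPM in empty-vector libraries.

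The lists of epithelial and mesenchymal genes hold the classical Snail targets, and their linked shares were near the 25.7% of all protein-coding genes. Of 25 epithelial genes, 5 were linked (20.0%), with sites at the tight junction gene Tjp3 (7.32-fold), at Ovol1 (5.52-fold) and at the claudin gene Cldn7 (5.25-fold). Of 23 mesenchymal genes, 5 were linked (21.7%), with sites at the matrix metalloproteinase genes Mmp2 (10.2-fold) and Mmp9 (7.27-fold). Epithelial windows had median H3K4me2 levels of 4.84 to 6.64 CPM in mutant, 4.28 to 6.1 CPM in wild-type and 5.64 to 5.99 CPM in empty-vector libraries. Other families were nearly empty, with 3 of 1474 olfactory and vomeronasal receptor genes (0.204%) and 0 of 54 keratin genes linked. Solute carrier genes were linked in 86 of 373 cases (23.1%), led by the bicarbonate transporter gene Slc4a9 with an 18.0-fold site.

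Of 23 genes of Lsd1 complexes and SNAG partners, 10 were linked (43.5%), led by Chd4 (7.44-fold), Mta3 (6.21-fold) and Mta2 (6.54-fold) of the NuRD complex. Kdm1a and Gfi1 had no mutant-only site, and Gfi1b had one of 4.67-fold, 4546 bases from a gene end. Genes of H3K4 methylation enzymes and their core subunits were linked in 12 of 26 cases (46.2%), with a 12.2-fold site at Setd1b and a 9.92-fold site at Kmt2a. Both shares stand beside 25.7% of all protein-coding genes. Shared sites reached 8.7% of the Lsd1 and SNAG list and 30.8% of the methylation enzyme list, beside 6.94% of protein-coding genes. The Snai1 gene had a 4.83-fold site (chr2:167538660-167538875) inside the gene, 530 bases from an end; reads of the vector's Snai1 cDNA were not separated from it.

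The E-box was much rarer in mutant-only than in shared promoters. A summit of a mutant-only site, and none of a shared one, fell in 2296 RefSeq promoters of 2145 genes, and a summit of a shared site fell in 309 promoters of 295 genes. The E-box CACCTG, on either strand, was in 21.0% of the mutant-only promoters (95% exact binomial interval 19.4 to 22.8%), in 63.4% of the shared promoters (57.8 to 68.8%) and in 20.2% of all 32851 promoters of the same length. In 2272 promoters of genes with high H3K4me2 (at least the median of linked windows) and no mutant peak within 5 kb it was in 13.4% (12 to 14.8%). The ETS core CCGGAAG had another order: it was in 35.2% of mutant-only promoters (33.3 to 37.2%), 27.8% of shared promoters (22.9 to 33.2%), 14.4% of the promoters with high H3K4me2 and no mutant peak, and 8.86% of all promoters. Of the E-box matches in mutant-only promoters, 545 in all, 16 shared bases with another motif searched. Degenerate versions of either motif were not searched.

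Other motifs differed less between the parts. The GC box GGGCGG was in 63.4% of mutant-only and 54.7% of shared promoters, and the CCAAT box in 38.9% of mutant-only and 40.5% of shared promoters. The E-box CACGTG of Myc was in 11.3% of mutant-only and 12% of shared promoters, and the E-box CATCTG of Tal1 in 10.3% of mutant-only and 12.6% of shared promoters. The GATA core AGATAA was in 6.1% of mutant-only and 7.44% of shared promoters, and the Runx core TGTGGT in 14.5% of mutant-only and 16.2% of shared promoters. TGACGTC, part of the cAMP response element, was in 8.58% of mutant-only and 9.71% of shared promoters. In all promoters the shares were 35.7% for the GC box, 37.4% for the CCAAT box, 7.15% for CACGTG, 17.2% for CATCTG, 11.2% for AGATAA, 16.8% for TGTGGT and 3.21% for TGACGTC. Base composition was close too, with a median GC content of 60% in mutant-only and 59.0% in shared promoters, against 65.7% in the promoters with high H3K4me2 and no mutant peak and 52.7% in all promoters. Each match is a string in the reference and not a measured site.

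**Figure D3:**
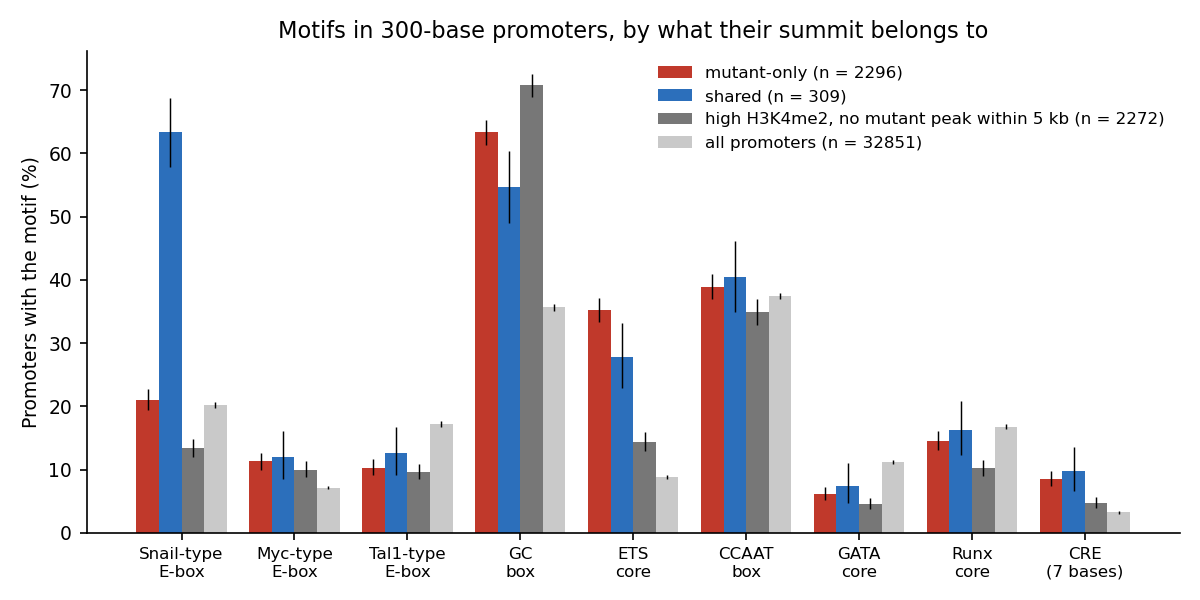
Percent of 300-base promoters holding each motif on either strand, for promoters with a mutant-only summit, with a shared summit, with high H3K4me2 and no mutant peak, and for all promoters; lines are 95% exact binomial intervals. The Snail-type E-box bar is 21.0% for mutant-only and 63.4% for shared promoters, and the ETS core bar is 35.2% for mutant-only and 8.86% for all promoters.

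Because shared sites were stronger, the shares were also taken within ranges of −log10 q. In promoters with a summit of −log10 q from 10 to under 20, the E-box was in 21.9% of 749 mutant-only promoters (interval 19.0 to 25%) and 40.7% of 86 shared promoters (30.2 to 51.8%). From 20 to under 50 it was in 40.9% of 203 mutant-only promoters (34.1 to 48.0%) and 73.7% of 95 shared promoters (63.6 to 82.2%). From 5 to under 10 it was in 17.1% of 943 mutant-only and 42.1% of 38 shared promoters. At 50 or more, all 14 mutant-only promoters held it, as did 72 of 82 shared ones (87.8%). Under 5 it was in 15.8% of 387 mutant-only and 3 of 8 shared promoters. The E-box share was thus highest in the strongest ranges of both parts, and it was lower in mutant-only promoters in each range under 50. The ETS share of mutant-only promoters was 28.2% under a −log10 q of 5, 35.2% from 5 to 10, 37.4% from 10 to 20, 40.9% from 20 to 50 and 35.7% (5 of 14) at 50 or more. In shared promoters it was 4 of 8, 31.6%, 24.4%, 29.5% and 25.6% in the same ranges. The intervals of the mutant-only and shared ETS shares overlapped in each range, and under 5 the shared share was the higher.

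The place of the motifs within the promoter also differed. An E-box lay within 50 bases of the summit in 10.7% of mutant-only and 45.0% of shared promoters. In mutant-only promoters its density reached 143 matches per 100 kb in the 20 bases after the summit, against 46.6 at 160 to 180 bases before it. In shared promoters the density in the same 20 bases was 775 matches per 100 kb. The ETS core lay within 50 bases of the summit in 19.6% of mutant-only and 14.6% of shared promoters. Its density in mutant-only promoters stayed between 199 and 274 matches per 100 kb from 40 bases before to 120 bases after the summit, with no maximum at the summit itself.

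**Figure D4:**
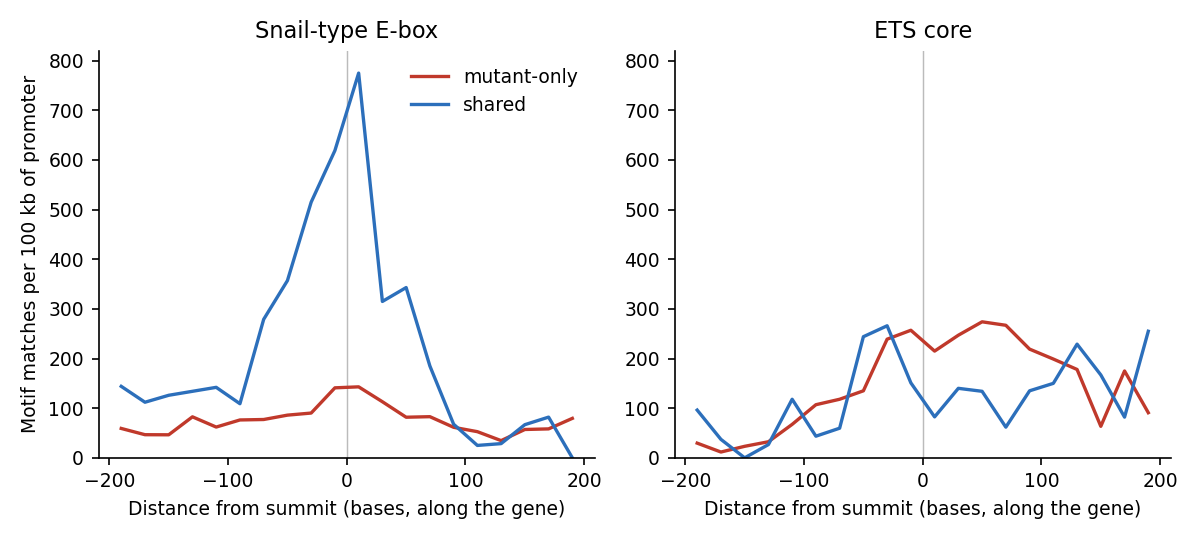
Matches of the Snail-type E-box and of the ETS core per 100 kb of promoter, in 20-base bins of distance from the summit along the gene, for mutant-only and shared promoters. The E-box reaches 775 per 100 kb at shared summits and 143 at mutant-only summits, and the ETS core forms a broad plateau in mutant-only promoters.

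H3K4 methylation was measured in windows around start sites, and the windows of linked genes were already strongly marked in cells without a Snai1 cDNA. A gene could be linked through either end, so its window need not hold the site. Of the 7942 linked genes, 6065 (76.4%) had a window in the count table, and all 6065 passed the filter on low counts. The 5380 windows linked to mutant-only sites alone had a median H3K4me2 of 69.6 to 70.5 CPM in the 3 mutant libraries, 70.2 to 71.7 CPM in the 3 wild-type libraries and 70.5 to 70.9 CPM in the 3 empty-vector libraries. Windows linked to shared sites had medians of 76.8 to 80.4 CPM in mutant, 78.2 to 78.5 CPM in wild-type and 78.3 to 80.1 CPM in empty-vector libraries. Windows linked to no mutant peak had 3.41 to 5.72 CPM in mutant, 3.05 to 4.22 CPM in wild-type and 4.07 to 4.26 CPM in empty-vector libraries. For H3K4me1 the windows linked to mutant-only sites alone had medians of 55.2 to 59.9 CPM in mutant, 55.8 to 60.2 CPM in wild-type and 57.1 to 58.2 CPM in empty-vector libraries. In the 2 IgG libraries the same windows had 40.5 and 43.5 CPM, against 35.5 and 36.9 CPM in windows linked to no mutant peak.

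The share of windows linked to a site followed the H3K4me2 level of the empty-vector cells. In the lowest of 10 deciles of windows, up to 1.67 CPM, 0.111% were linked to a mutant-only site. In the fifth decile the share was 9.5%, in the sixth 19.7%, in the seventh 40.4% and in the highest decile, from 98.3 to 403 CPM, 55.7%. Shared sites were linked to 0.037% of windows in the lowest and 19.1% in the highest decile. The steepest step for mutant-only sites lay between the sixth and the seventh decile, and for shared sites the share grew more evenly. The gene lists above were set beside all protein-coding genes and not beside genes of like H3K4me2. The part of the H3K4me2 level in their linked shares was not tested.

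**Figure D5:**
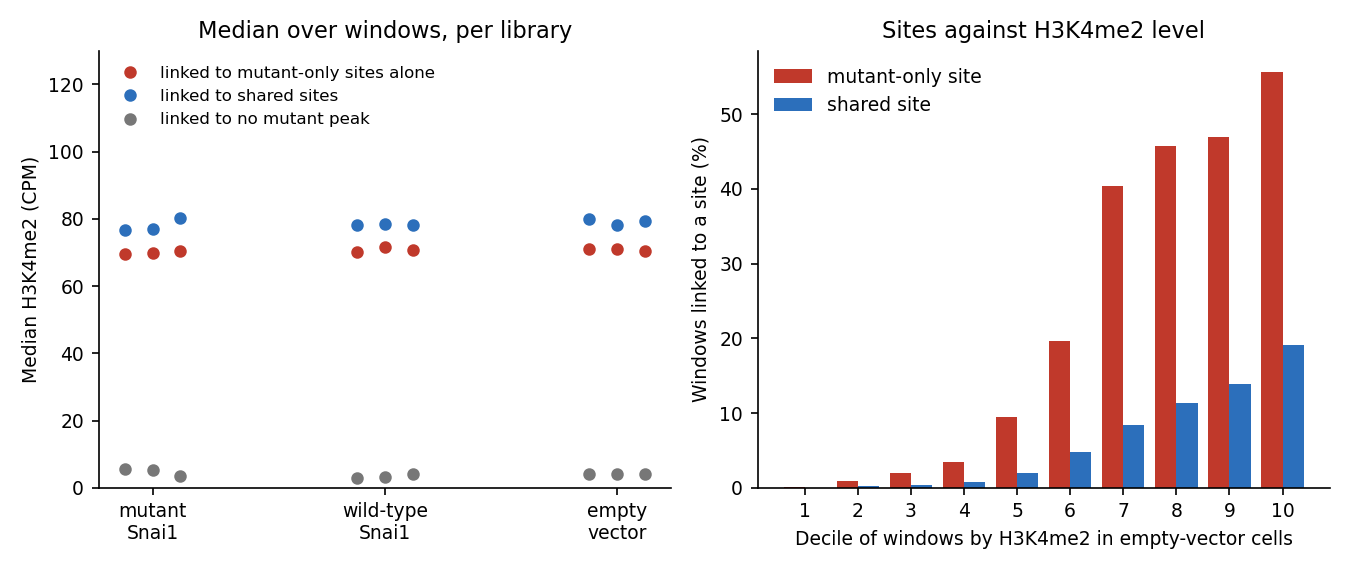
Left, median H3K4me2 (CPM) per library over windows linked to mutant-only sites alone, to shared sites and to no mutant peak, for mutant, wild-type and empty-vector cells (1 point per library, 3 per construct). Right, percent of windows linked to a mutant-only or a shared site in each decile of windows by H3K4me2 in empty-vector cells; mutant-only sites reach 55.7% in the highest decile.

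No linked window passed the test for H3K4me2 or H3K4me1. In mutant against wild-type cells, 0 of 6065 linked windows passed an adjusted p of 0.05 for H3K4me2 in edgeR's quasi-likelihood F-test (0.0% of all 25742 windows tested passed), and the smallest adjusted p of a linked window was 0.503. At an unadjusted p under 0.05, 110 linked windows were higher in mutant (1.81%, against 6.34% of all windows) and 388 were lower (6.4%, against 3.55%). DESeq2 called 14 linked windows of 72 in all, 5 higher and 9 lower. The median log2 fold change of linked windows was -0.11, against 0.04 for all windows tested, -0.11 for windows linked to shared sites and -0.12 for 2427 windows with high H3K4me2 and no mutant peak. The median of linked windows thus stood close to that of other windows of high H3K4me2.

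Libraries limited this comparison. Libraries numbered 1 stood apart from those numbered 2 and 3 in every construct, and the ratio of housekeeping to silent receptor windows in H3K4me2 was 68.7, 29.3 and 30.2 in mutant libraries 1, 2 and 3, against 55.3, 64.3 and 57.3 in wild type and 55.0, 47.6 and 45.6 in empty vector. Within replicate 1 the median log2 difference of linked windows, mutant minus wild type, was 0.09 (all windows 0.02), and within replicates 2 and 3 it was -0.21 (all windows 0.10). Without mutant replicate 1, 1381 linked windows passed for H3K4me2 against wild type, 68 higher (1.12%, against 6.0% of all windows) and 1313 lower (21.6%, against 10.6%). Without wild-type replicate 1, 49 linked windows passed, 13 higher (0.214%, against 0.612% of all windows) and 36 lower (0.594%, against 0.345%). The part that this ratio has in the differences was not tested.

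Against the empty vector, 0 linked windows passed for H3K4me2 (0.0% of all windows), with 137 higher and 142 lower at an unadjusted p under 0.05 (2.26 and 2.34% of linked windows, against 3.34 and 1.61% of all), and DESeq2 called 0 linked windows of 8 in all. The median log2 fold change was -0.04 for linked windows and 0.03 for all, with within-batch medians of 0.08 in replicate 1 and -0.10 in replicates 2 and 3. Without mutant replicate 1, 206 linked windows passed, 13 higher (0.214%, against 0.829% of all windows) and 193 lower (3.18%, against 1.57%). Without empty-vector replicate 1, 136 passed, 109 higher (1.8%, against 1.2% of all windows) and 27 lower (0.445%, against 0.38%). The mutant libraries are the same in both comparisons.

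For H3K4me1, 0 linked windows passed against wild type (0.0% of all 25728 windows), with 116 higher and 106 lower at an unadjusted p under 0.05 (1.91 and 1.75% of linked windows, against 3.43 and 1.81% of all), and DESeq2 called 2 linked windows of 32 in all. The median log2 fold change of linked windows was -0.05, against 0.01 for all, and 0.17 in replicate 1 against -0.17 in replicates 2 and 3. Without mutant replicate 1, 37 linked windows passed, 6 higher (0.0989%, against 0.417% of all windows) and 31 lower (0.511%, against 0.406%). Against the empty vector 0 linked windows passed (0.0% of all windows), with 39 higher and 19 lower at an unadjusted p under 0.05 (0.643 and 0.313% of linked windows, against 1.08 and 0.529% of all), and DESeq2 called 0; the median was -0.01.

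The linked windows with the smallest p, predicted genes left out, are given with their values, and none passed in the edgeR fit of all libraries. The values are of start-site windows and not of the sites. The site lay 4464 bases from a gene end in Lrrc4b, 4193 in Hoatz and 107 in Sgsh. Lrrc4b, a synaptic adhesion gene with a 5.25-fold site, had 74.7, 71.1 and 70.7 CPM of H3K4me2 in mutant libraries, against 49.7, 38.2 and 34.8 CPM in wild-type libraries. The groups did not overlap, and the log2 fold change was 0.81 ± 0.162 (SE; edgeR adjusted p = 0.503). Sgsh, which encodes a lysosomal sulfamidase, had 46.5, 59.1 and 54.2 CPM in mutant libraries, against 74.0, 89.4 and 86.6 CPM in wild-type libraries, without overlap (log2 fold change -0.65 ± 0.149, edgeR adjusted p = 0.503). The window of its neighbour Slc26a11, a sulfate transporter gene, held nearly the same reads, and both were linked to the same 7.0-fold site. Sgsh passed with a batch term (edgeR adjusted p = 0.013) and with DESeq2 (adjusted p = 0.0356), as did Slc26a11 (0.0134 and 0.0386), and over all alternatives the adjusted p ran from 0.013 to 0.969 for Sgsh. Lrrc4b passed with DESeq2 (adjusted p = 0.0177), with a range of 0.0177 to 0.969. Without mutant replicate 1, Lrrc4b, Hoatz and Sgsh passed (edgeR adjusted p = 0.033, 0.0197 and 0.0408). Without wild-type replicate 1, Lrrc4b and Hoatz passed (edgeR adjusted p = 0.0215 each). Hoatz, with a 4.02-fold site, had 16.4, 6.81 and 7.64 CPM in mutant libraries, against 19.7, 46.2 and 49.7 CPM in wild-type libraries. Its wild-type libraries 2 and 3 were far above wild-type library 1, and it passed when scaled to silent receptor windows (edgeR adjusted p = 0.00398, range 0.00398 to 0.969).

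Asic4, of the acid-sensing ion channel family, was among the smallest p against both other constructs. It had 140, 160 and 154 CPM of H3K4me2 in mutant libraries, against 96.6, 103 and 93.7 CPM in wild-type libraries and 127, 87.2 and 82.0 CPM in empty-vector libraries. Each mutant library lay above each of the other 6, and the log2 fold changes were 0.63 ± 0.147 against wild type (edgeR adjusted p = 0.503) and 0.61 ± 0.147 against the empty vector (edgeR adjusted p = 0.952). Asic4 passed against wild type without mutant replicate 1 (edgeR adjusted p = 0.031). It passed against the empty vector without empty-vector replicate 1 (edgeR adjusted p = 0.00421). The site of Asic4 lay 3255 bases from a gene end, and that of N4bp3 lay 3864 bases from one. N4bp3 had a mean of 51.0 ± 12.2 CPM in mutant and 18.3 ± 7.18 CPM in wild-type libraries (SD, n = 3 each). It passed without replicate 1 of mutant (edgeR adjusted p = 0.0291) or of wild type (edgeR adjusted p = 0.0435). Med6, a Mediator gene with its site 87 bases from a gene end, had 49.9, 50.6 and 53.7 CPM in mutant libraries, against 44.1, 32.8 and 33.0 CPM in empty-vector libraries. Fads6, Cd300ld3 and Ddx3y had log2 fold changes of -1.58, -0.86 and -0.78 against the empty vector (edgeR adjusted p = 0.952 each), and Fads6 passed with the silent scaling (edgeR adjusted p = 0.0302). Mutant and empty-vector libraries overlapped in Fads6 (5.88, 4.57 and 5.89 against 5.86, 23.7 and 19.7 CPM). They also overlapped in Ddx3y (39.0, 24.2 and 28.7 against 35.5, 59.2 and 64.7 CPM), and in Cd300ld3 they did not. Without empty-vector replicate 1, Med6, Fads6, Cd300ld3 and Ddx3y passed (edgeR adjusted p = 0.0238, 0.00701, 0.0238 and 0.0141).

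For H3K4me1, Sys1, a gene of Golgi traffic, had 58.4, 62.1 and 63.1 CPM in mutant libraries, against 37.0, 36.3 and 40.9 CPM in wild-type libraries (log2 fold change 0.68 ± 0.141, edgeR adjusted p = 0.724). Nectin2, a cell adhesion gene, had 59.1, 58.4 and 68.3 CPM in mutant libraries, against 35.9, 40.9 and 34.6 CPM in wild-type libraries and 47.9, 34.0 and 36.7 CPM in empty-vector libraries. In both genes each mutant library was above each library it was compared with. Klf1, the erythroid transcription factor gene, had 83.7, 90.0 and 101 CPM in mutant libraries, against 72.1, 49.2 and 50.7 CPM in empty-vector libraries (log2 fold change 0.58 ± 0.193, edgeR adjusted p = 1.0). The site of Klf1 lay 3325 bases from a gene end, that of Sys1 3911 bases and that of Nectin2 828 bases. Of the other windows named by the same rule against wild type, Cnga1 had a log2 fold change of -1.49, Tpbpb of -0.88, Creb3l1 of -1.19 and Trav13n-4 of -1.3. Cnga1 passed with DESeq2 (adjusted p = 0.0156, range 0.0156 to 1.0) and Trav13n-4 with a batch term (edgeR adjusted p = 0.0448, range 0.0448 to 1.0). Against the empty vector, Ankrd65 and Rcl1 had 0.96 and 0.59, and Septin3 and Tnfrsf1b had -0.88 and -0.68.

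The start-site windows of Gtpbp2 and Fars2, the genes of the strongest sites, did not pass for H3K4me2 either. Gtpbp2 had 140, 112 and 111 CPM in mutant libraries, against 134, 149 and 150 CPM in wild-type libraries and 136, 113 and 119 CPM in empty-vector libraries. The mutant library numbered 1 lay among the others, and libraries 2 and 3 lay below all wild-type libraries. Fars2 had 80.3, 76.8 and 79.0 CPM in mutant libraries, against 75.9, 83.6 and 89.4 CPM in wild-type libraries and 78.8, 72.7 and 80.2 CPM in empty-vector libraries, and all groups overlapped. The Snai1 window had 56.5, 33.8 and 30.9 CPM in mutant libraries, against 32.9, 54.4 and 41.4 CPM in wild-type libraries and 26.7, 35.1 and 26.3 CPM in empty-vector libraries.

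Sites were unevenly spread over the chromosomes. Per 100 protein-coding genes there were 7.45 sites on chromosome X and 20.9 to 41.9 on the autosomes, highest on chromosome 17 (41.9) and chromosome 1 (36.5). Shared sites had 1.76 per 100 genes on chromosome X and 10.3 on chromosome 17. On chromosome 8, with 32.8 sites per 100 genes, the median H3K4me2 of mutant libraries 2 and 3 stood 0.25 above the other constructs on the log2 scale relative to all windows, and 0.01 in mutant library 1. Chromosomes 2 and 12 stood 0.17 above in libraries 2 and 3. For H3K4me1 these libraries stood 0.39 above on chromosome 8, 0.22 on 12, 0.21 on 2 and 0.16 on 19. Of the windows named for their smallest p, Klf1 (chromosome 8), Sys1 (2), Med6 (12) and Rcl1 (19) were higher in mutant. Creb3l1 (2) was lower. The part of these offsets in single windows was not tested.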

How the data were processed

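Snai1 ChIP, H3K4me2, H3K4me1 and IgG of HPC7 cells were analysed from the deposited files. Per the submitters' processing notes, the authors called Snai1 peaks with MACS2, aligned with Subread and made the read counts in start-site windows using featureCounts (builds GRCm38 and mm10, no versions given). Each deposited peak list gives a fold enrichment, a −log10 q and a score (unused here) per peak; the deposited counts are raw. Whether input served as control is not given in the sources used here. Of 27095 window IDs, 20 without reads and 31 repeating an earlier row were left out, and 25173 (93.1%) matched a RefSeq symbol. Windows of neighbouring genes can share reads.

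The members and gene lists were chosen with earlier results of these data known. Genes were named by rule: the 12 strongest sites, up to 3 per list, the sites at the limits of the rule, and the 6 smallest p per comparison where under 5 windows passed. Some genes that this rule names are not reported here. All 3 constructs of a mark were fitted with edgeR 4.0.16 (R 4.3.3; TMM, filterByExpr, quasi-likelihood F-test, two-sided, Benjamini-Hochberg over all windows, threshold 0.05), with DESeq2 1.42.0 as an alternative. CPM are on TMM-scaled totals for single windows and on column totals for medians. For H3K4me1, empty-vector libraries 2 and 3 differed by less than the sampling noise (variance ratio 0.98) and were summed and counted as 1 sample. No source says whether replicates are separate cultures, so p-values measure the spread between these libraries, which may be technical. Total counts were 8687538 to 18185750 for H3K4me2, 4040418 to 8807370 for H3K4me1 and 2713014 and 3353574 for IgG. Same-numbered mutant and empty-vector libraries deviated together in the pairing check (correlations 0.156 to 0.365 for H3K4me2 and 0.368 to 0.577 for H3K4me1). Peaks, motifs and promoters were handled in Python 3.11.15 (pandas 2.3.3, scipy 1.17.1). Fits were tested on simulated data with fixed spreads that were set beforehand and not estimated from these libraries. That test did not include the difference between libraries numbered 1 and those numbered 2 and 3.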

Additional observations from a re-analysis of the deposited data

How the results depend on the processing

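The number of sites was within 1.5 times 6160 under 7 alternatives and was 2102 with a −log10 q of at least 10; limiting genes to protein-coding ones (5162) or to those in the count table (5351) was chosen after seeing the data, as were motif shares at a stricter −log10 q, where the E-box was in 27.0% of mutant-only promoters at 10 or more and the ETS core in 38.1%. In the main fit 6065 of 25742 windows tested were linked for H3K4me2 and 6065 of 25728 for H3K4me1. For H3K4me2 against wild type, linked windows that passed numbered 14 of 72 in all with DESeq2 and 7 of 22 with a batch term. They numbered 8 of 51 when scaled to silent receptor windows, a scaling that put the median of all windows at -0.25 in place of 0.04. Leaving out 1 library gave 0 to 1381 (of 4289 in all). Against the empty vector they numbered 1 of 15 in all with the silent scaling, and 0 to 206 (of 620 in all) leaving out 1 library. For H3K4me1 against wild type they numbered 2 of 32 in all with DESeq2, 3 of 30 with a batch term and 0 to 37 (of 211 in all) leaving out 1 library. For H3K4me1 against the empty vector every alternative gave 0. The median of linked minus all windows kept its sign when any 1 library was left out, except for H3K4me1 against the empty vector (-0.078 to 0.036). Its sign differed between batches, though. Against wild type, linked medians in replicate 1 were 0.09 for H3K4me2 (all windows 0.02) and 0.17 for H3K4me1 (all windows 0.05). In replicates 2 and 3 they were -0.21 (all windows 0.10) and -0.17 (all windows 0.03). H3K4me2 against the empty vector had 0.08 (all windows 0.02) and -0.10 (all windows 0.06). No window named for its smallest p changed direction under any alternative; the other windows given with values were not refitted singly. The peak lists carry no replicate.

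A replicate block gave 4 linked windows of 12 in all for H3K4me2 against wild type, where same-numbered libraries did not all deviate together (correlations -0.215 to 0.126), and 0 linked windows in the other comparisons. Of the named windows Sgsh and Slc26a11 passed under it (adjusted p = 0.0266 and 0.0275), and the block changed no other call.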
